A study of Mus musculus with 6 samples.

Results

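Pulmonary surfactant genes were followed in mouse lung by taking 10 named genes from the deposited count table: Sftpa1, Sftpb, Sftpc and Sftpd, which encode the surfactant proteins SP-A, SP-B, SP-C and SP-D, Napsa and Abca3 of surfactant processing and transport, and Chka, Pcyt1a, Chpt1 and Lpcat1 of phosphatidylcholine synthesis. All 10 were among the 29753 genes of the table, and all 10 passed the low count filter that left 17686 genes for testing. The RNA came from whole lungs of balb/c mice, sequenced in bulk. The mice received K7M2 cells, an established osteosarcoma line of mouse origin that forms lung metastases, by orthotopic implantation, and lungs were taken at D0 or D14, with 3 replicate libraries for each. Both groups carry the same strain and tissue labels, and no allele, further agent, age or sex was used. The labels do not say whether D0 lungs came from operated animals or whether a library pools mice, and no D14 lung without implanted cells was analysed, so the tumour, the procedure and the passage of 14 days cannot be told apart. All tests therefore weigh the days against library to library spread, which may be partly technical.

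Surfactant is a film of lipid and protein that lowers the surface tension of the alveoli. It is made by alveolar type 2 cells, packed into lysosome-related organelles called lamellar bodies, secreted, and then taken up again by type 2 cells or broken down by alveolar macrophages. Its main lipid is phosphatidylcholine, made from choline in successive steps by choline kinase (Chka), a cytidylyl-transferase (Pcyt1a) and a cholinephosphotransferase (Chpt1), and then remodelled to the disaturated form by an acyltransferase (Lpcat1).

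Promoter sequences from RefSeq (GRCm38.p6) were found for 7 of the 10 genes: Sftpa1, Sftpb, Abca3, Lpcat1, Pcyt1a, Chka and Chpt1. The 250 bases before the annotated start are shown for 3 of them, 5′ to 3′ on the strand of the gene: the surfactant protein genes Sftpa1 and Sftpb, both highest in the same D0 library, and Pcyt1a, the gene with the largest difference between the days. Capitals mark matches to 6 letter strings searched on both strands: CTCAAG, around the CAAG core bound by the lung factor NKX2-1, TGTTTGC and TGTTTAC, bound by forkhead factors, the GC box GGGCGG, the TATA box TATAAA, and TCACNCCAC, a form of the sterol regulatory element. The windows are chr14:41131538-41131787 for Sftpa1, chr6:72304360-72304609 for Sftpb and chr16:32430671-32430920 for Pcyt1a, each on the plus strand.
Sftpa1: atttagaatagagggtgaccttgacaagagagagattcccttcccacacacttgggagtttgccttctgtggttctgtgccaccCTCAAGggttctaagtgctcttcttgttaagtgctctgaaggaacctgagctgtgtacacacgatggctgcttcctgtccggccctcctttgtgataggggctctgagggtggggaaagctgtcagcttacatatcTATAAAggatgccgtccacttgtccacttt
Sftpb: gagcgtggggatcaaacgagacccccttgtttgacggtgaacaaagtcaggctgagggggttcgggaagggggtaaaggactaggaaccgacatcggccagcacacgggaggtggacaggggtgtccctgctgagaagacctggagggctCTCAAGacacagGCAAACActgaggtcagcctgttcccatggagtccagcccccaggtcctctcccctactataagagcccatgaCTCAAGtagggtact
Pcyt1a: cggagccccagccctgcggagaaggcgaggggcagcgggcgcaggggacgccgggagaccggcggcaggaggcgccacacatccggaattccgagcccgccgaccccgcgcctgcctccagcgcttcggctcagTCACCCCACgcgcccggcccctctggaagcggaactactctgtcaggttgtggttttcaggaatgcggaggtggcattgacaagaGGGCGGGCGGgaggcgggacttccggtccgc

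The Sftpb window held CTCAAG at 100 to 95 and at 15 to 10 bases before the start, and TGTTTGC on the opposite strand at 88 to 82 bases before it. The Sftpa1 window held CTCAAG at 166 to 161 bases and TATAAA at 30 to 25 bases before the start. The Pcyt1a window held neither string for the lung factors. It held TCACNCCAC at 116 to 108 bases and a pair of overlapping GC boxes at 31 to 26 and 27 to 22 bases before the start. Of 32851 promoters in the RefSeq table, 13.3% held CTCAAG, 4.30% TGTTTGC, 3.17% TGTTTAC, 32.7% GGGCGG, 12.4% TATAAA and 1.05% TCACNCCAC. CTCAAG was found in 3 of the 7 genes (Sftpa1, Sftpb and Chpt1), TCACNCCAC in 2 (Abca3 and Pcyt1a) and GGGCGG in 5 (Abca3, Lpcat1, Pcyt1a, Chka and Chpt1). The windows also differed in CG dinucleotides, with 3 in Sftpa1 and 7 in Sftpb against 16 to 28 at the first listed start of the other genes, where the median of all promoters was 6. Each match describes the letters in the window and no binding was measured.

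Library totals ran from 14878101 to 17385006 counts. D0 replicate 3 stood apart from the other libraries: it lay at 82.8 on the first principal component of log2 expression against −41.5 to 15.7 for the others, and red cell genes took 5.02% of its counts against 0.993% to 2.80% elsewhere. Across all genes tested, 28.7% had their highest value in that library. Fold changes of several surfactant genes and medians of several gene lists are also given without it, but not every value that moved. Without it the median log2 fold change of the red cell genes went from −0.04 to 0.98. That of the alveolar macrophage markers went from −0.59 to −0.11. The labelled tissue was checked because the extraction text names macrophages from bone marrow: Sftpc was the most abundant gene of the table by mean CPM (the count relative to the TMM-scaled library total) and the secretory airway gene Scgb1a1 was next, at 15840 CPM, so lung epithelial RNA was abundant in these libraries.

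Sftpc led the surfactant genes by a wide margin. SP-C, its product, is a small and very hydrophobic protein of the surfactant film made by type 2 cells. Per kilobase of its longest coding transcript, Sftpc stood at 28584 ± 14142 CPM at D0 (SD, n = 3) and 20797 ± 3933 at D14, and its lowest library was 6.91 times the highest of Sftpb, the next gene. The order at D0 went on with Sftpb at 1958, Sftpa1 at 1289, Sftpd at 557, Napsa at 299, Lpcat1 at 142, Abca3 at 90.7, Chka at 33.2, Chpt1 at 23.3 and Pcyt1a at 10.9 CPM per kilobase. Neighbours in that order whose libraries overlapped were Sftpb with Sftpa1 and Chpt1 with Pcyt1a. At D14 Abca3 stood before Lpcat1, at 92.4 and 91.4, and Pcyt1a before Chpt1, at 25.7 and 24.7, and these were the only neighbours that overlapped at that day. The order rests on the transcript lengths used. In mean CPM not divided by length, Sftpa1 stood before Sftpb at D0, at 3678 and 2917. Abca3 stood before Lpcat1 already at D0 on that scale, at 587 and 523.

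No surfactant gene passed an adjusted p of 0.05 between the days in edgeR's quasi-likelihood test with Benjamini-Hochberg adjustment over all genes, where 0.0339% of all tested genes passed. At an unadjusted p under 0.05 stood 1 of the 10, Pcyt1a, which was higher, beside 12.6% of all genes in either direction and 5.48% higher. DESeq2 and limma-voom also called 0 of the 10, where they called 247 of 19923 and 6 of 17686 genes. Of the 10 genes, 3 were higher and 7 lower at D14, with a median log2 fold change of −0.18 against −0.03 over all genes tested. Without D0 replicate 3, 4 were higher and 6 lower, and both medians lay near 0, at −0.0122 for the 10 genes and −0.0186 for all genes. Without D0 replicate 1 the median of the 10 was −0.28. Pcyt1a was also the 1 gene whose libraries did not overlap between the days, beside 21.6% of all genes, 10.9% being higher. In whole lung, a difference in type 2 cell number and a difference in RNA per cell cannot be told apart.

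**Figure D1:**
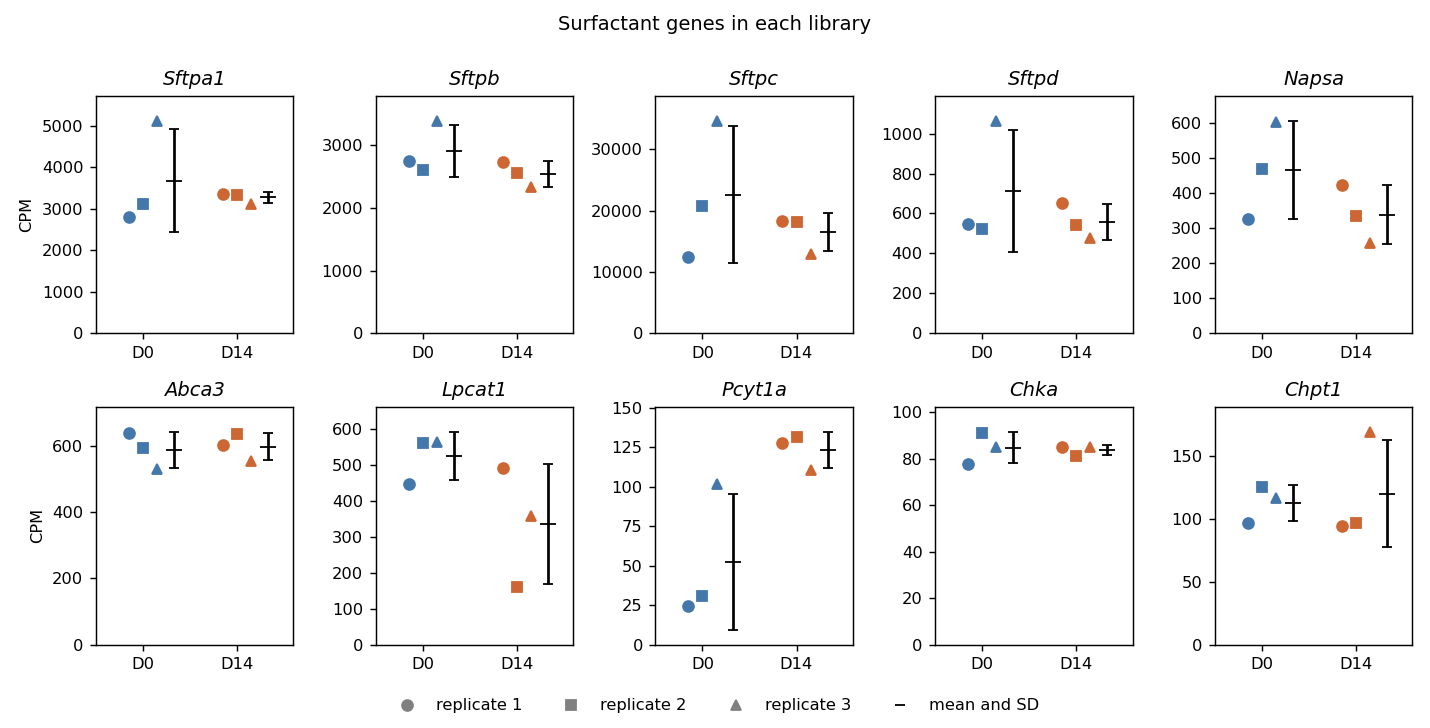
Expression of the 10 surfactant genes in CPM (vertical axes, from 0) in each library at D0 (blue) and D14 (orange). Symbols give the replicate number, and the black bar is the mean with the SD of 3 libraries. D0 replicate 3 is the highest library for all 4 surfactant protein genes, and Pcyt1a is the 1 gene whose D14 libraries all lie above D0.

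Among the surfactant proteins, Sftpc (chromosome 14, 70520949 to 70524081, minus strand) had 12446, 20839 and 34630 CPM in D0 replicates 1 to 3 and 18300, 18239 and 12874 CPM in the D14 replicates. D0 held both the lowest and the highest library, 2.78-fold apart, and all D14 libraries lay between them. The log2 fold change was −0.46 (SE 0.39; 95% interval −1.36 to 0.45; adjusted p = 0.606, edgeR quasi-likelihood test). Without D0 replicate 3 it was −0.01 (95% interval −0.70 to 0.68), and without D0 replicate 1 it was −0.75 at an adjusted p of 0.257 in edgeR.

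Sftpb (chromosome 6, 72304610 to 72314371, plus strand) encodes SP-B, which is needed for lamellar bodies and for spreading the film. It had 2757, 2606 and 3388 CPM at D0, against 2738, 2555 and 2335 at D14. D0 replicate 3 was the highest library and D14 replicate 3 the lowest, and the days overlapped. Its log2 fold change was −0.20 (SE 0.19), with an adjusted p of 0.652 in edgeR, with a 95% interval of −0.64 to 0.25. It was −0.0750 without D0 replicate 3.

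Sftpa1 and Sftpd encode SP-A and SP-D, collectins that bind sugars on microbes in the airspace. Their genes lie near each other on chromosome 14, Sftpa1 from 41131782 to 41136452 on the plus strand and Sftpd from 41172214 to 41185149 on the minus strand, with the collectin gene Mbl1 between them. Sftpa1 had 2801, 3123 and 5111 CPM at D0, against 3360, 3341 and 3110 at D14. Its D14 libraries were within 1.08-fold of each other, while D0 spanned 1.82-fold. Sftpd had 546, 523 and 1063 CPM at D0, against 654, 540 and 478 at D14, with D0 replicate 3 again far above the other libraries. The log2 fold changes were −0.17 (SE 0.26) for Sftpa1 and −0.35 (SE 0.30) for Sftpd, with adjusted p of 0.785 and 0.610 in edgeR. Without D0 replicate 3 both turned positive, at 0.14 for Sftpa1 and 0.06 for Sftpd.

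Taken as 1 sum, the counts of the 4 surfactant protein genes made up 1.99%, 2.81% and 4.23% of all counts in D0 replicates 1 to 3. In the D14 replicates they made up 2.49%, 2.39% and 1.81%. The mean was 3.01% ± 1.13 at D0 and 2.23% ± 0.364 at D14 (SD, n = 3), and the difference of −0.779 percentage points was smaller than the spread within D0 (exact permutation test, two-sided, p = 0.4, where 3 against 3 libraries allow no p below 0.1). Wilson 95% intervals for these shares were at most as wide as 4.22% to 4.24% in D0 replicate 3 and cover counting error only, far narrower than the spread between libraries. Without D0 replicate 3 the difference was −0.170 percentage points (exact permutation test, p = 0.8). Without D0 replicate 1 it was −1.29 (exact permutation test, p = 0.1, the smallest p possible there), and the days did not overlap.

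**Figure D2:**
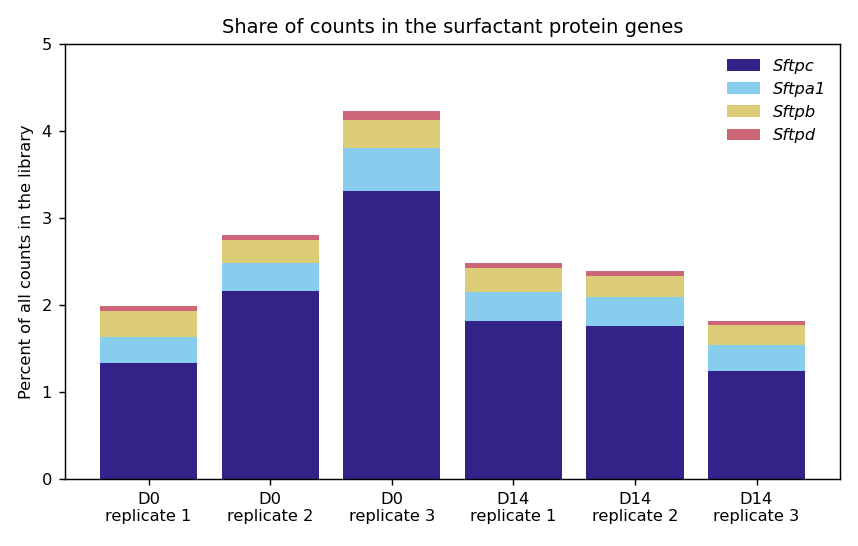
Percent of all counts in each library (vertical axis) that fell on Sftpc, Sftpa1, Sftpb and Sftpd, stacked, for 3 libraries at D0 and 3 at D14. The bars run from 1.81% in D14 replicate 3 to 4.23% in D0 replicate 3, and Sftpc fills most of each bar.

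The mix of the 4 transcripts also moved between libraries. Sftpc made up 67.1%, 76.9% and 78.4% of the sum in the D0 replicates and 73.0%, 73.9% and 68.5% in the D14 replicates. Sftpb made up 14.9% where Sftpc was lowest, in D0 replicate 1, and 7.67% where it was highest, in D0 replicate 3. The count of Sftpc over that of Sftpb was therefore 4.51 to 10.2 among the D0 libraries and 5.51 to 7.14 among the D14 libraries, and the ranges of the days overlapped.

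Napsa (chromosome 7, 44572380 to 44586862, plus strand) encodes napsin A, an aspartic protease that trims the precursor of SP-B. It had 325, 469 and 603 CPM at D0, against 424, 334 and 258 at D14. Both days covered much of the same range, with D0 replicate 3 the highest and D14 replicate 3 the lowest library, as for Sftpb and Sftpd. The log2 fold change was −0.46 (SE 0.27), with an adjusted p of 0.485 in edgeR, and −0.23 without D0 replicate 3. It was −0.66 without D0 replicate 1 and −0.65 without D14 replicate 1. The sign was negative in all 15 alternative settings, as for Sftpb, Sftpc and Lpcat1, and these settings reuse the same libraries. An antisense gene annotated over Napsa, Gm15396, had at most 9 counts in a library.

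Abca3 (chromosome 17, 24351950 to 24410201, plus strand) encodes the transporter that loads phospholipid into lamellar bodies. It had 638, 593 and 531 CPM at D0, against 603, 636 and 555 at D14, a spread of 1.20-fold over all 6 libraries. Unlike the surfactant proteins and Napsa, Abca3 was lowest in D0 replicate 3. The log2 fold change was 0.03 (SE 0.16), with an adjusted p of 0.948 in edgeR, and the 95% interval was −0.34 to 0.39. Its sign was negative without D0 replicate 3, without D14 replicate 2 and with no scaling factors. The noncoding gene D330041H03Rik, annotated over Abca3 on the opposite strand, had 77 to 146 counts per library.

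In phosphatidylcholine synthesis, Pcyt1a stood out. Its product, the cytidylyl-transferase CCT-alpha, catalyses the rate-limiting step of the pathway. Pcyt1a (chromosome 16, 32430921 to 32475070, plus strand) had 24.2, 30.5 and 101 CPM in D0 replicates 1 to 3 and 127, 131 and 110 CPM in the D14 replicates, from 416, 477 and 1445 counts and 2201, 2062 and 1722 counts. D0 fell into a low pair, replicates 1 and 2, and a high library, replicate 3, which lay just under the lowest D14 library. The mean went from 52.0 ± 42.9 to 123 ± 11.2 CPM (SD, n = 3), a log2 fold change of 1.24 (SE 0.51; 95% interval 0.05 to 2.43), with an unadjusted p of 0.0427 and an adjusted p of 0.389 in edgeR's test over all genes. Its spread within D0, a coefficient of variation larger than that of 97.8% of the tested genes, was the widest of the 10.

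Leaving out D0 replicate 3 made Pcyt1a the 1 surfactant gene to pass, with a log2 fold change of 2.17 (SE 0.16) and, in edgeR with 2 libraries against 3, an adjusted p of 0.00972, where 0.121% of all tested genes passed. That fit drops the library in which the gene was nearest to D14. Without D0 replicate 1 the log2 fold change was 0.91 and without D0 replicate 2 it was 0.97, and the adjusted p over all 15 alternatives ran from 0.00972 to 0.725. Slc51a, which overlaps the Pcyt1a locus on the opposite strand, had 4 to 12 counts per library at D0 and 16 to 32 at D14, a log2 fold change of 1.51 on far fewer counts than Pcyt1a. The table has 1 row for Pcyt1a, and transcript structures behind that row were not analysed here.

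Chka (chromosome 19, 3851773 to 3894369, plus strand), the kinase of the first step, was the steadiest of the genes. It had 77.7, 91.0 and 85.2 CPM at D0, against 84.8, 81.2 and 84.9 at D14. All libraries lay within 1.17-fold of each other, and the log2 fold change was −0.02 (SE 0.13; 95% interval −0.32 to 0.29; adjusted p = 0.958, edgeR). Its sign was positive with DESeq2, without D0 replicate 2 and without D14 replicate 2.

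Chpt1 (chromosome 10, 88452745 to 88504073, minus strand), which joins phosphocholine to diacylglycerol, had 97.2, 125 and 117 CPM at D0, against 94.8, 97.0 and 169 at D14. D14 replicate 3 was the highest library and D14 replicate 1 the lowest, so both ends of the range fell on the same day. The log2 fold change was 0.09 (SE 0.25), with an adjusted p of 0.889 in edgeR, and −0.24 without D14 replicate 3. Sycp3, which overlaps Chpt1 on the opposite strand, had 6 to 30 counts per library.

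Lpcat1 (chromosome 13, 73467197 to 73516422, plus strand), the remodelling acyltransferase, had 446, 560 and 564 CPM at D0, against 492, 159 and 356 at D14. D14 replicate 2 was 3.08-fold under D14 replicate 1, which lay inside the D0 range. The log2 fold change was −0.64 (SE 0.37; 95% interval −1.50 to 0.22; adjusted p = 0.475, edgeR). It was −0.30 without D14 replicate 2 and −1.01 without D14 replicate 1, and negative in all 15 alternative settings. The spread of Lpcat1 within D14 exceeded that of 92.8% of the tested genes.

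**Figure D3:**
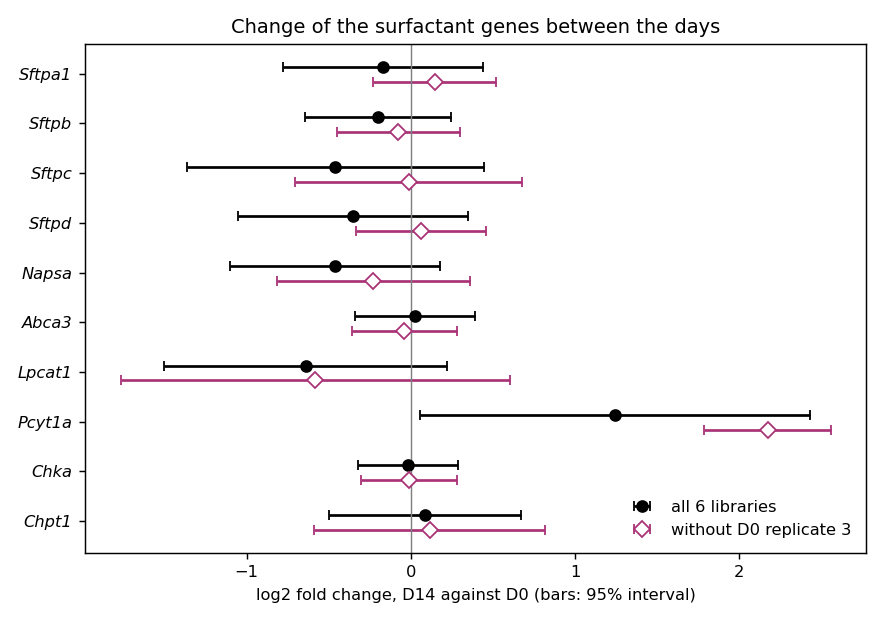
Log2 fold change of D14 against D0 (horizontal axis) for each surfactant gene, with 95% intervals from the edgeR fit, on all 6 libraries (filled circles) and without D0 replicate 3 (open diamonds). Pcyt1a moves from 1.24 to 2.17 and Sftpc from −0.46 to −0.01 when that library is left out.

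Type 2 cell markers outside the 10 genes were read beside them, and their RNA level does not separate cell number from RNA per cell. Of 18 such markers, some of them also on the processing and regulator lists below, 0 passed, with a median log2 fold change of −0.14, 5 higher and 13 lower. The median turned to 0.0590 without D0 replicate 3, with 11 higher and 7 lower, while leaving out any other library gave −0.24 to −0.0917. Their summed level was 7628, 8328 and 11214 CPM in the D0 replicates and 8668, 8159 and 7265 CPM in the D14 replicates, so D0 replicate 3 was again the highest. The most abundant were Cxcl15, a lung chemokine, at 2247 ± 622 and 2030 ± 153 CPM, and Slc34a2, a phosphate transporter, at 2012 ± 287 and 1868 ± 224 CPM (SD, n = 3). The 2 smallest unadjusted p belonged to Tfcp2l1, a transcription factor, and Nkx2-1. Tfcp2l1 had a log2 fold change of 0.39 (SE 0.15; unadjusted p = 0.0315, edgeR). It was the 1 marker under an unadjusted p of 0.05, beside 12.6% of all genes in either direction and 5.48% higher. In D0 replicate 3, 12 of the 18 markers had their highest value. The summed surfactant protein transcripts were 2.43, 3.25 and 3.94 times the marker sum in the D0 replicates and 2.89, 3.02 and 2.59 times in the D14 replicates, so the surfactant sum spread over a wider range of levels between libraries than the marker sum did.

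**Figure D4:**
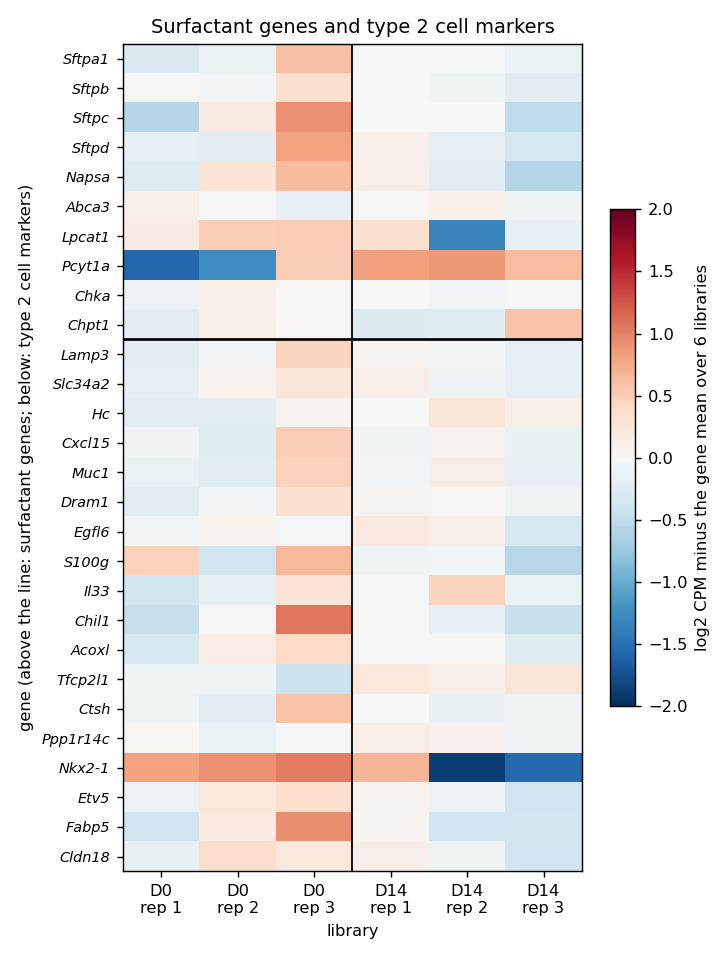
Log2 CPM of the 10 surfactant genes (above the line) and 18 type 2 cell markers (below it), each minus its own mean over 6 libraries, in 3 libraries at D0 and 3 at D14. D0 replicate 3 is high for the surfactant proteins, Napsa and many markers, while Abca3 is lowest there. Pcyt1a is higher in every D14 library than at D0, and Lpcat1 and Nkx2-1 are lowest in D14 replicates 2 and 3.

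Markers of some other cell types also stood apart in D0 replicate 3. Alveolar macrophage markers summed to 404 to 1162 CPM at D0 and 467 to 614 CPM at D14, and 7 of 10 were highest in D0 replicate 3. General macrophage markers summed to 4104 to 9701 CPM at D0 and 4518 to 5099 CPM at D14, with 5 of 6 highest in that library. Red cell genes summed to 9237 to 52461 CPM at D0 and 16434 to 28889 CPM at D14. Endothelial markers, 9 of 10 higher in value at D14 with a median log2 fold change of 0.59 (0.39 without D0 replicate 3), ran the other way, from 3279 CPM in D0 replicate 3 to 5935 CPM elsewhere at D0 and from 6342 to 6827 CPM at D14. Type 1 cell markers summed to 8944 to 11667 CPM at D0 and 8806 to 10454 CPM at D14, club cell markers to 10110 to 20288 and 19924 to 27076 CPM, ciliated cell markers to 106 to 179 and 130 to 174 CPM, and fibroblast markers to 5174 to 7906 and 5521 to 6557 CPM. Immediate early genes, which respond to handling and stress, were all higher in value at D14, 9 of 9 (8 of 9 without D0 replicate 2 or without D14 replicate 1) with a median log2 fold change of 1.04 and 6 at an unadjusted p under 0.05 (5.48% of all genes were higher at that p), and summed to 719 to 906 CPM at D0 and 1286 to 1532 CPM at D14. None of these lists had a gene past the adjusted threshold, and no marker on them was at 0 in all libraries. The part of cell makeup and of handling in the surfactant values was not tested.

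The genes closest in pattern to the surfactant proteins were found by the Pearson correlation of log2 CPM with their mean profile over the 6 libraries, among 11107 genes with a mean of at least 10 CPM. The profile itself ran from −0.30 in D14 replicate 3 to 0.66 in D0 replicate 3 on the log2 scale, and D0 replicate 3 lay farthest from the mean. Chil1, a chitinase-like protein on the type 2 marker list, came first with r = 0.995, at 437, 594 and 1263 CPM at D0, against 610, 528 and 438 at D14. Rpl4 and Rplp2, ribosomal proteins, followed with r of 0.995 and 0.993, Gm3531 with 0.993 and Slc25a4, the mitochondrial ADP/ATP carrier of muscle and heart, with 0.992. In all 235 genes exceeded an r of 0.95. No test was made of these values, and they were not recomputed without that library. Of the other surfactant genes, Napsa had r = 0.881 with the profile and Abca3 r = −0.597.

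Regulators of surfactant genes showed 0 of 14 past the adjusted threshold, with a median log2 fold change of −0.11, and of −0.17 to −0.0753 with any 1 library left out. Nkx2-1, the homeodomain factor that drives surfactant protein genes, had 315, 339 and 371 CPM at D0, against 289, 48.8 and 61.3 at D14. Its D14 libraries all lay under D0, yet replicate 1 was near the D0 values and replicates 2 and 3 were far lower. The log2 fold change was −1.36 (SE 0.64; unadjusted p = 0.0674 and adjusted p = 0.418, edgeR). Without D14 replicate 1, the D14 library nearest to D0, it was −2.63, with an adjusted p of 0.101 in edgeR. It was −0.96 without D14 replicate 2 and −1.01 without D14 replicate 3. Gm26973, annotated over Nkx2-1 on the opposite strand, had 54 to 87 counts per library.

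Gata6, a zinc finger factor of the lung epithelium, had 65.8, 72.5 and 60.6 CPM at D0, against 47.2, 50.3 and 51.5 at D14, a log2 fold change of −0.42 (SE 0.14), with an adjusted p of 0.364 in edgeR, with no overlap between the days. Stat3 was at 0.36 (SE 0.14), also without overlap. Of the 14 regulators, 1 had all D14 libraries above D0 and 3 had all under it, beside 10.9% and 10.7% of all genes. Adgrf5, the receptor through which type 2 cells sense the surfactant pool and which capillaries also express, stood at 836 ± 387 CPM at D0 and 1249 ± 136 CPM at D14 (SD, n = 3). Srebf1, the lipogenic factor whose element was searched above, was picked after its values were seen. It had 113, 114 and 126 CPM at D0, against 103, 110 and 101 at D14, a log2 fold change of −0.17 (SE 0.13), with all D14 libraries under D0, as for 10.7% of all genes.

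Other genes of phosphatidylcholine and glycerolipid synthesis showed 0 of 24 past the adjusted threshold, 13 higher and 11 lower, with a median log2 fold change of 0.05. That median ran from 0.0247 without D0 replicate 2 to 0.12 without D0 replicate 3. At an unadjusted p under 0.05 stood 1 higher, Lpin2, a phosphatidate phosphatase that makes diacylglycerol, at 0.78 (SE 0.28), and 1 lower, Chkb, the relative of Chka, at −0.68 (SE 0.24). Of all genes, 5.48% were higher and 7.09% lower at that p. Lpin2 had 70.4, 93.2 and 43.1 CPM at D0, against 98.5, 133 and 123 at D14. Chkb had 27.6, 50.3 and 46.6 CPM at D0, against 28.3, 23.9 and 25.4 at D14, with D0 replicate 1 among the D14 values. The most abundant members were Slc44a2, a choline transporter-like protein, at −0.19 (SE 0.19), and Etnk1, an ethanolamine kinase, at 0.28 (SE 0.19). The relatives of the surfactant genes were chosen for naming because of that relation. Pcyt1b, the other cytidylyl-transferase, had 1.54 to 3.42 CPM in all libraries, against 24.2 to 131 CPM for Pcyt1a, and Cept1, a relative of Chpt1, had a log2 fold change of −0.13 (SE 0.17). The acyltransferases Lpcat2, Lpcat3 and Lpcat4 stood at −0.01 (SE 0.21), −0.03 (SE 0.13) and 0.06 (SE 0.20).

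**Figure D5:**
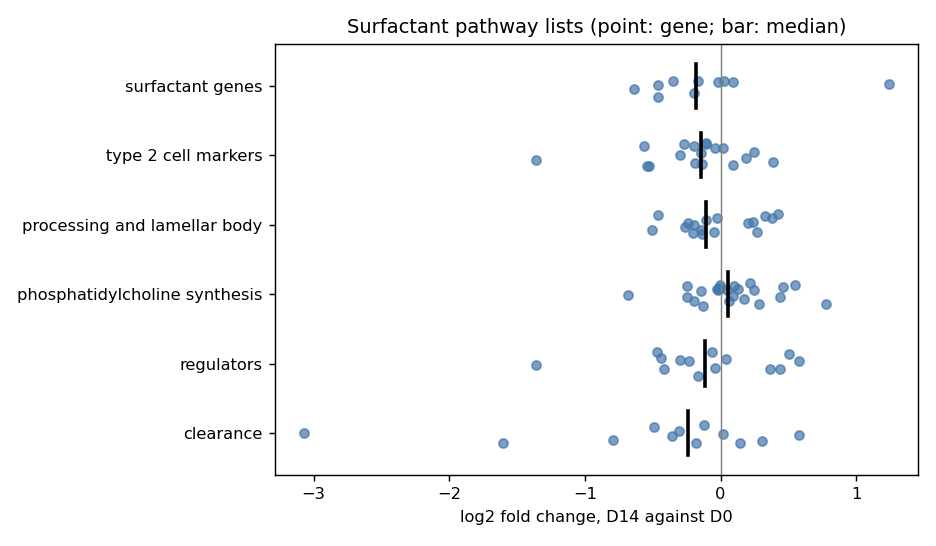
Log2 fold change of D14 against D0 (horizontal axis) of each tested gene in 6 lists, with the median of each list as a black bar. With all 6 libraries the medians lie between −0.24 for clearance and 0.05 for phosphatidylcholine synthesis, without D0 replicate 3 that of clearance is −0.0142, and Pcyt1a is the surfactant gene at 1.24.

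In processing and lamellar body traffic, 0 of 17 tested genes passed the adjusted threshold, with 6 higher and 11 lower and a median log2 fold change of −0.11. The median was −0.00222 without D0 replicate 3, with 8 higher and 9 lower, and without D14 replicate 3 it was −0.0508. Lamp3, a membrane protein of lamellar bodies, stood at 665 ± 168 CPM in D0 and 605 ± 45.3 in D14 (SD, n = 3). The smallest p-values belonged to Hps1 and Hps4, subunits of a complex that builds lysosome-related organelles, at −0.51 (SE 0.18) and −0.46 (SE 0.18), each with D14 libraries under all D0 libraries. Of the 17 genes, 3 had all D14 libraries under D0 and 3 had all above it, beside 10.7% and 10.9% of all genes. Hps1 had 14.5 to 17.1 CPM at D0, against 9.38 to 12.6 at D14. Pgc, which is below the low count filter, had at most 0.407 CPM.

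Genes of surfactant uptake and breakdown had 0 of 12 past the adjusted threshold, 4 higher and 8 lower, and a median log2 fold change of −0.24. That median was −0.0142 without D0 replicate 3, with 5 higher and 7 lower, and without D0 replicate 1 it was −0.41. At an unadjusted p under 0.05, 4 of the 12 were lower, beside 7.09% of all genes in that direction: Csf2ra, Csf2, Marco and Pla2g15. Only Csf2ra did so without D0 replicate 3, at −0.80. Csf2 encodes GM-CSF and Csf2ra its receptor chain, a signal that alveolar macrophages need to clear surfactant. Csf2ra had 32.7, 42.9 and 36.7 CPM at D0, against 22.6, 19.5 and 22.8 at D14, a log2 fold change of −0.79 (SE 0.16; unadjusted p = 0.00140 and adjusted p = 0.308, edgeR). Its days did not overlap, with every D14 library under 23 CPM. Of the 12 genes, 2 had all D14 libraries under D0 and 0 had all above it, beside 10.7% and 10.9% of all genes. Csf2 had 2.38, 1.66 and 5.76 CPM at D0, against 1.33, 1.21 and 0.641 at D14, from 10 to 82 counts per library. Marco, a scavenger receptor, rested on 1 library, at 35.7 CPM in D0 replicate 3 and between 0.833 and 2.36 in the others. Pla2g15, a lysosomal phospholipase named after its values were seen, stood at −0.49 (SE 0.20). The most abundant members were Prdx6, an enzyme with phospholipase activity on surfactant lipid, at −0.36 (SE 0.26) but −0.0132 without D0 replicate 3, and Abcg1, a cholesterol exporter, at 0.02 (SE 0.17).

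Relatives of the surfactant genes by family gave 0 calls as well. Of 4 tested collectins, Colec12, a scavenger receptor, was the most abundant with 126, 140 and 92.9 CPM at D0, against 151, 161 and 176 at D14, a log2 fold change of 0.45 (SE 0.18), with an adjusted p of 0.390 in edgeR. Its D14 libraries lay above all D0 libraries, as for 10.9% of all genes and unlike those of Sftpa1 and Sftpd. Mbl1 and Colec10 had at most 2.81 and 1.53 CPM. Of 10 tested ABCA transporters, 5 were higher and 5 lower, with Abca1 at 0.31 (SE 0.17), Abca5 at −0.03 (SE 0.22), Abca6 at 0.99 (SE 0.43) and Abca17 at −0.37 (SE 0.14). Abca17 is the neighbour of Abca3, 882 bases away on the opposite strand, and had 24.8, 25.0 and 28.6 CPM at D0, against 20.4, 19.6 and 20.5 at D14, while Abca3 itself overlapped between the days. Abca17 was the 1 of these 10 transporters with all D14 libraries under D0, beside 10.7% of all genes. Of 4 tested aspartic proteases related to napsin A, the lysosomal Ctsd was the most abundant, with 616, 804 and 1478 CPM at D0, against 722, 673 and 723 at D14. D0 replicate 3 was the highest library for Ctsd as for Napsa, and without it the log2 fold change of Ctsd went from −0.45 to −0.00645. The secretases Bace1, at −0.20 (SE 0.30), and Bace2, at −0.39 (SE 0.24), overlapped between the days.

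The neighbours on the chromosome of the genes that varied most were also read. Tctex1d2, 1822 bases from Pcyt1a, had 138 to 225 counts at D0 and 141 to 239 at D14, and a log2 fold change of −0.14. Bmp1, 715 bases from Sftpc, had 1233 to 1395 counts at D0 and 1053 to 1287 at D14, without the excess of D0 replicate 3 seen for Sftpc. Mrpl36, 135019 bases from Lpcat1, had 431 counts in D14 replicate 2 against 424 and 501 in the other D14 libraries.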

How the data were processed

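Total RNA was isolated with TRIzol and sequenced from libraries made with an NEB kit, per the labels' protocols. The extraction protocol names macrophages from bone marrow as its source. Every library was nevertheless treated here as lung, following its sample title. The submitters' processing notes name HISAT2 2.1.0, CASAVA 1.8, edgeR and StringTie 1.3.4b, and the build GRCm38, without saying what each did. For strand and annotation, the sources used here give nothing. The authors deposited estimated counts for each gene symbol, not scaled, 1 column to a library. Values were rounded. Of 29757 lines, 4 (2 empty, 2 not whole) were left out, and 50 rows repeating a symbol, 0 of them for the surfactant genes, were kept apart.

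Genes were tested with edgeR 4.0.16 in R 4.3.3: TMM factors, the default low count filter, robust quasi-likelihood F test, two-sided, 6 libraries, no covariate, Benjamini-Hochberg adjustment over 17686 genes, threshold 0.05. The SE is the size of the log2 fold change divided by the square root of F, and intervals use the degrees of freedom of that fit. Log2 CPM used a prior count of 2. Lengths and positions come from GENCODE M21 (GRCm38). The gene test was also run on simulated counts in which no library stood apart as D0 replicate 3 did. That run does not cover such a library. Alternatives were DESeq2 1.42.0, limma-voom (3.58.1), other scaling, other filters, a replicate block, summed repeats and each library left out. The genes and lists were chosen with earlier results of these data known. Of each pathway or family list, the genes past the threshold or else the 2 most abundant and the 2 of smallest p are named, and cell type lists other than the type 2 list are given by sums. Same-numbered libraries of the 2 days were not paired by the labels, and their deviations from the day means correlated at 0.119, −0.0548 and −0.0972.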

Additional observations from a re-analysis of the deposited data

How the results depend on the processing

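Among 15 alternatives, 14 called 0 of the 10 surfactant genes, and 1 was called without D0 replicate 3, so the range over left-out libraries was 0 to 1. Over all genes the 6 calls became 247 of 19923 with DESeq2, 26 of 29753 with no low count filter and 0 to 22 with a library left out. With the replicate block the count was 0 over all genes and 0 of the surfactant genes; replicate numbers are not shown to pair the samples, and only D0 replicate 1 correlated best with its own number among the D14 libraries. The paired exact sign-flip test of the surfactant protein share gave p = 0.75, where 3 pairs allow no p below 0.25. The share was lower at D14 in all 11 alternatives, between −1.29 and −0.170 percentage points over left-out libraries and −0.118 with Sftpc left out of the sum, a setting chosen after seeing the data. Signs changed for 5 of the 10 genes: Sftpa1 and Sftpd without D0 replicate 3, Chpt1 without D0 replicate 1 or D14 replicate 3, and Abca3 and Chka, whose values were near 0 throughout, with Chka at 0.00384 with DESeq2 and Abca3 at −0.0478 with no scaling factors. Over left-out libraries the ranges were −0.33 to 0.14 for Sftpa1, −0.53 to 0.0624 for Sftpd, −0.0405 to 0.10 for Abca3, −0.0693 to 0.0429 for Chka and −0.24 to 0.24 for Chpt1. The lowest count of a surfactant gene in a library was 416, and what limited the number of calls was not tested.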
